A study of Mus musculus with 11 samples.

Results

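Mouse CD4 T cells made to carry A384T FoxP3, a mutant form of the transcription factor FoxP3, were compared with the same kind of cells carrying an empty vector. The comparison used 3 arrays titled as A384T FoxP3-transduced and 3 titled as mock-transduced, 6 of the 11 arrays of the series, over all probe sets that measure genes. The other arrays, 3 of wild-type (WT) FoxP3 and 2 of R397W FoxP3, entered the same statistical fit and served for direct contrasts with A384T. In all 4 groups the mice were BALB/cA, and naive CD4 T cells were taken from their spleen and lymph nodes. The cells were stimulated with 0.5 µg/ml anti-CD3e antibody and 10 ng/ml IL-2, and the culture also held spleen cells from which T cells had been removed and which had received 20 Gy. Retrovirus was added by spin infection 24 h later, cells were kept in IL-2, and on day 7 the CD4 cells brightest for GFP were sorted. Every group carried the MIGR1 vector, which makes GFP; the mock group carried it without FoxP3.

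FoxP3 is the forkhead factor that defines Treg cells, the regulatory CD4 T cells that restrain immune responses. It binds DNA through its forkhead domain and acts with partner factors both to raise genes of the Treg programme, such as the IL-2 receptor alpha chain and CTLA-4, and to lower effector genes. Both substitutions, A384T and R397W, change a residue of that domain and are known from patients with IPEX, an autoimmune disease caused by mutations in FOXP3. FoxP3 was here expressed from a retrovirus in activated conventional T cells, so the model is not a Treg cell that formed in an animal, and the sort took the cells with the most GFP. Whether arrays of the same group stem from different cultures or mice is not said in the labels. The p-values therefore reflect only how much these arrays vary, and that variation may be technical.

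Each deposited value was a log2 value from which the probe set's median over the 3 mock arrays had been taken away, so mock sits at 0 and a value of 1 is a doubling on the log2 scale. Differences between arrays can be read from such values, but expression levels cannot, and whether a cell type marker was expressed at all cannot be checked. A gene was read through whichever of its probe sets varied most (by standard deviation) over the 11 arrays, a choice that favours larger changes where a gene has several. It was called higher or lower at an adjusted p under 0.05 (limma, Benjamini-Hochberg over 45037 probe sets). Differences are given as A384T minus mock, ± the standard error of the fit, n = 3 arrays a group unless stated.

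The probe set for Foxp3 did not separate the groups. Its values were 0.33, 0.10 and 0.30 on the A384T arrays numbered 1, 2 and 3, and 0, -0.34 and 0.26 on the mock arrays. These ranges overlap, and the difference was 0.27 ± 0.15 (adjusted p = 0.579). The sources used here do not give whether its probes lie inside the transduced sequence, so this probe set does not check the labels.

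Of 45037 probe sets, 976 were called (2.17%), and 3303 when the model held the array number as a block (7.33%). Of 18193 genes, 538 were called, which is 2.96% of those tested: 308 were higher with A384T FoxP3 (1.69%) and 230 were lower (1.26%). The median difference over all genes was -0.01. Among the genes called higher the median rise was 1.22 and 66 rose by more than 2, whereas among those called lower the median size was 1.06 and 33 fell by more than 2. The 2 groups of arrays did not overlap at 15.7% of all genes, and they overlapped at none of the 538. With the block, 1794 genes were called (9.86% of those tested), 961 higher (5.28%) and 833 lower (4.58%), among them all 538, so that counts with the block are given below wherever they differ by more than 1.5 times. Without the arrays numbered 2 in any group, 43 genes were called, against 218 without those numbered 1 and 294 without those numbered 3. Of 113 called genes named by the rule, 17 were called in each of the 14 fits that left out an array or an array number: Gpr83, Il2ra, Izumo1r, Mpzl2, Drc1, Gzmc, Cyp4f18, Sdc4, Myl10, Tnfrsf9, Klrd1, Nebl, Cyp2s1, Myo6, Lypd6b, Fcgr3 and Scd1. The other 96 lost their call in at least 1 of these fits, and 17 of them in 8 or more: Txk in all 14, Fasl in 13, Cd44 in 12, Gzmb, Maff, Ndufb8 and Rel in 11, Ccr2, Ebi3, H2-Oa, Hspa8, Il18rap, Klf2 and Spry1 in 10, and Ell2, Ifit2 and Oas2 in 8. Of the 113, 56 had several probe sets, and another probe set was called for 26 of these and not for 30.

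**Figure D1:**
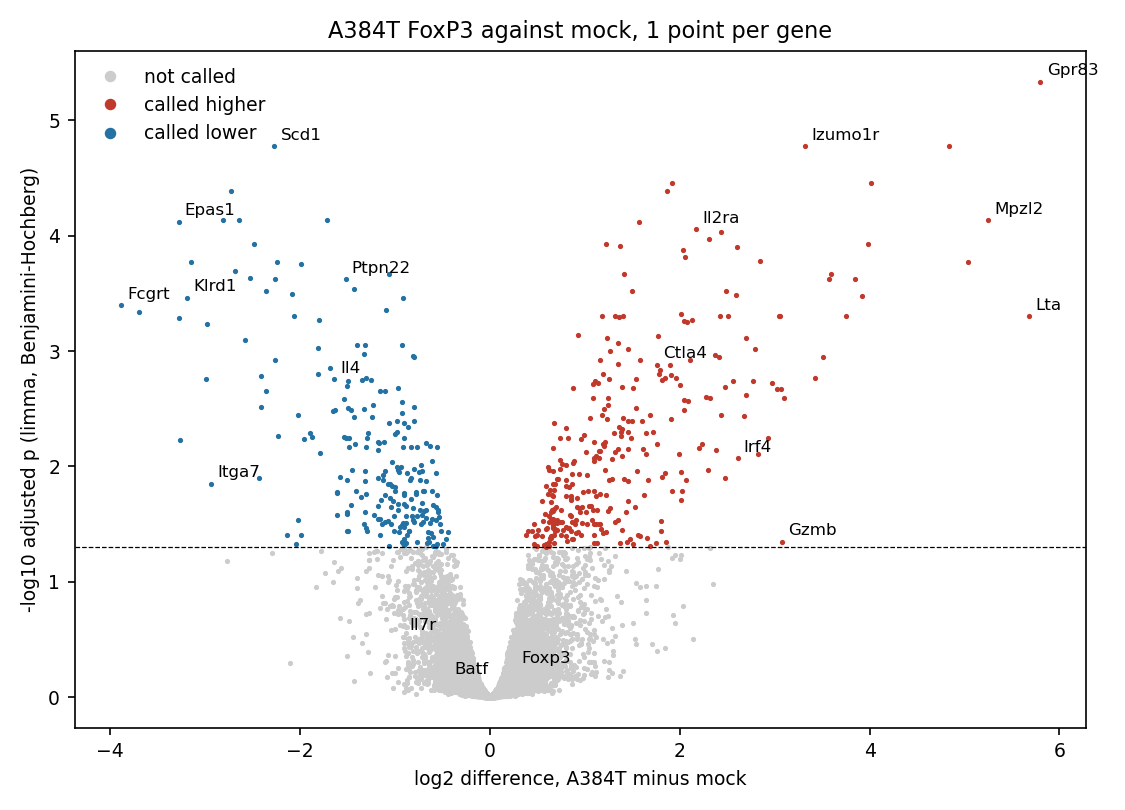
Each point is 1 of 18193 genes, with the log2 difference of A384T minus mock on the horizontal axis and the -log10 adjusted p on the vertical axis; the dashed line marks an adjusted p of 0.05. The 308 genes called higher reach 5.80 (Gpr83) and the 230 called lower reach -3.89 (Fcgrt), while Foxp3, Batf and Il7r lie under the line.

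Gpr83, which encodes a receptor coupled to G proteins and marks Treg cells, rose the most. It read 6.30, 5.45 and 5.65 on A384T arrays 1, 2 and 3, against 0, 0.018 and -0.018 on the mock arrays. All 3 A384T arrays were far above the 3 mock arrays, a difference of 5.80 ± 0.22 (55.8-fold, adjusted p = 4.61e-06), and both of its probe sets were called. Lta encodes lymphotoxin alpha, a secreted member of the TNF family. Its values were 6.60, 5.87 and 4.26 with A384T FoxP3 and -0.43, 0 and 0.12 in mock, again without overlap but with the third A384T array lowest. The difference was 5.68 ± 0.54 (51.3-fold, adjusted p = 0.000502), and the call was lost without the arrays numbered 2.

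Mpzl2, which encodes an adhesion protein with an immunoglobulin fold, stood at 5.45, 5.62 and 5.12 on the A384T arrays and at 0.56, -0.13 and 0 on the mock arrays. It rose by 5.25 ± 0.33 (38.1-fold, adjusted p = 7.32e-05), with all 3 of its probe sets called. Tgm2, a transglutaminase that cross-links proteins, measured 5.82, 5.18 and 4.25 against 0.23, -0.11 and 0. Its rise of 5.04 ± 0.39 (adjusted p = 0.000169) was carried by 5 of 6 probe sets, and the third A384T array was again the lowest. Drc1, a component of the dynein regulatory complex of cilia, rose by 4.84 ± 0.23 (adjusted p = 1.67e-05).

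The next rises covered enzymes, cytoskeletal genes and surface proteins. Gzmc, a granzyme protease, gained 4.02 ± 0.22, and Cyp4f18, a cytochrome P450 that inactivates leukotriene B4, gained 3.98 ± 0.28, with a second probe set at 0.056 ± 0.17 that was not called. Nrn1, which encodes the membrane-anchored protein neuritin, was up by 3.92 ± 0.35. Enah, a regulator of actin filament growth, had 6 of 6 probe sets called and a difference of 3.85 ± 0.32. For Sdc4, the proteoglycan syndecan-4, the difference was 3.75 ± 0.36. Myl10, a myosin light chain, rose by 3.59 ± 0.29, and Gldc, a subunit of the mitochondrial glycine cleavage system, by 3.51 ± 0.39. The adjusted p of these 7 genes lay between 3.47e-05 (Gzmc) and 0.00112 (Gldc). Among the 20 largest rises the smallest was Fah, the last enzyme of tyrosine breakdown, at 3.05 ± 0.29.

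**Figure D2:**
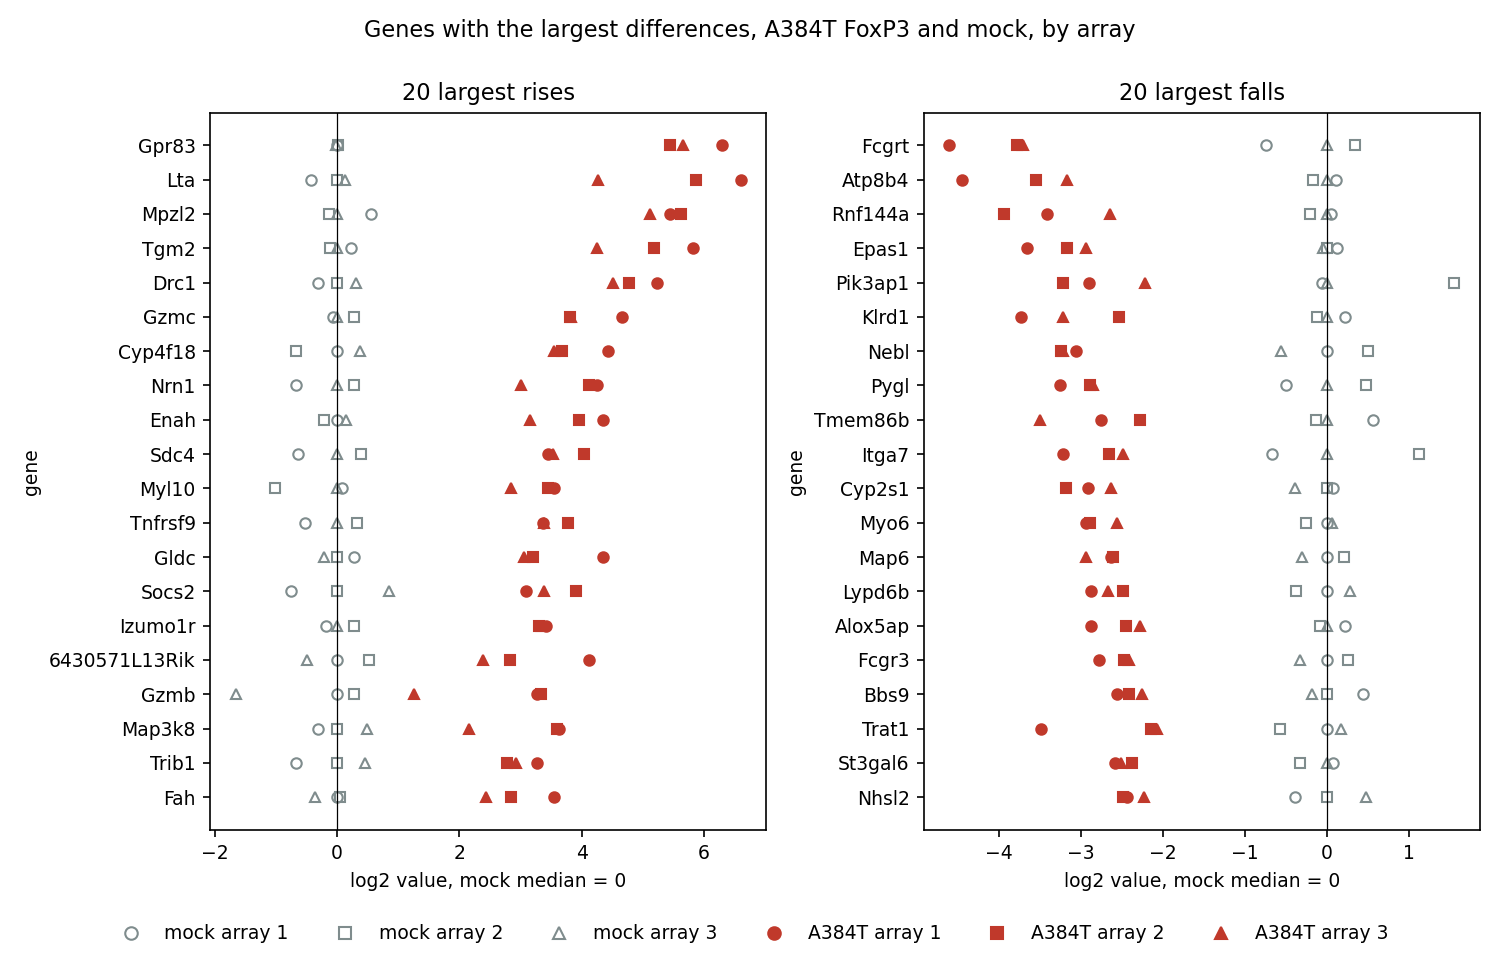
The 20 largest rises (left) and the 20 largest falls (right) among called genes, with the log2 value of each array on the horizontal axis, where the mock median is 0; open grey symbols are mock and filled red symbols A384T, and shape gives the array number. Only genes whose 3 A384T arrays do not overlap the 3 mock arrays were eligible, so the separation seen follows from the choice. For Gzmb array 3 is the lowest of both groups, at 1.26 with A384T and -1.66 in mock.

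The deepest fall was that of Fcgrt, the neonatal Fc receptor, which recycles IgG and albumin inside cells. Its values of -4.60, -3.77 and -3.70 with A384T FoxP3 lay below those of -0.74, 0.35 and 0 in mock. The fall was 3.89 on the log2 scale, a difference of -3.89 ± 0.36 (14.9-fold lower, adjusted p = 0.000401). Atp8b4, a phospholipid-flipping ATPase, read -4.45, -3.54 and -3.16 against 0.11, -0.16 and 0, a difference of -3.70 ± 0.35 (adjusted p = 0.000463), with both probe sets called. Epas1, which encodes the hypoxia-inducible factor HIF-2 alpha, stood at -3.65, -3.17 and -2.93 against 0.13, 0 and -0.038, and differed by -3.28 ± 0.21 (adjusted p = 7.56e-05). In all 3 of these genes the first A384T array was the lowest and no A384T array reached a mock array. Each of the 3 calls was lost without the arrays numbered 2.

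Other large falls were in genes of quite different roles. Rnf144a, a ubiquitin ligase, differed by -3.28 ± 0.32, and Pik3ap1, an adaptor that brings PI3-kinase to receptors (BCAP), by -3.27 ± 0.48. Nebl, an actin-binding protein, differed by -3.15 ± 0.24, Pygl, a glycogen phosphorylase, by -2.99 ± 0.36, and Tmem86b, an enzyme of lysoplasmalogen breakdown, by -2.98 ± 0.30. The other probe sets differed by -0.26 and -0.14 for Nebl, -0.16 and -0.0051 for Tmem86b and -1.05 for Pik3ap1, and none of these was called. For Pik3ap1 the second mock array stood apart at 1.56, with the others at -0.06 and 0, and A384T read -2.90, -3.21 and -2.21. Cyp2s1, another cytochrome P450, was 6.99-fold lower and Myo6, the motor protein myosin VI, 6.64-fold lower. The adjusted p of these 7 genes ranged from 4.12e-05 (Myo6) to 0.00585 (Pik3ap1).

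The 250 bases before the annotated start were read for called genes with a RefSeq promoter window (assembly GRCm38.p6), matched by Entrez gene identifier: 417 of 538 had a window and 317 had exactly 1. 3 genes at the extremes of the comparison are shown, because FoxP3 binds DNA through a forkhead domain and STAT5 acts downstream of the IL-2 receptor. Capitals mark letters that match TGTTTNC, a core forkhead motif, or TTCNNNGAA, the STAT motif, on either strand. The windows are chr9:14859960-14860209 on the plus strand for Gpr83, chr17:35205352-35205601 on the minus strand for Lta, and chr7:45103823-45104072 on the minus strand for Fcgrt.
Gpr83: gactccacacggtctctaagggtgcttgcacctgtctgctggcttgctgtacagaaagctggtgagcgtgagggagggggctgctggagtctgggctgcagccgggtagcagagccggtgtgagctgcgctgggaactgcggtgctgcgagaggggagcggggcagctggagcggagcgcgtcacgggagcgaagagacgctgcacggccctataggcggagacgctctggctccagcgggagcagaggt
Lta: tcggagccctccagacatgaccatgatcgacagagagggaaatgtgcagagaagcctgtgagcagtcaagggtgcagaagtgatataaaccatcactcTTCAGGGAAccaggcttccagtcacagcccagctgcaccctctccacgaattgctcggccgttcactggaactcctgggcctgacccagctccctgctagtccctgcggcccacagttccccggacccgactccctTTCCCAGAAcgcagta
Fcgrt: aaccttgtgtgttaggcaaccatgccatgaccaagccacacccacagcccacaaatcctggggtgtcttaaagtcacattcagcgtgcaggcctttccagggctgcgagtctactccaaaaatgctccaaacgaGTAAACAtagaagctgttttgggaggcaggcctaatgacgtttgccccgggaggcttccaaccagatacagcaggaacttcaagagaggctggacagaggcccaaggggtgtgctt
The Gpr83 window held no match, the Lta window 2 STAT matches whose first bases lie 152 and 16 bases before the start, and the Fcgrt window 1 forkhead match whose first base lies 116 bases before it. These are matches of letters, not sites of binding.

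Over genes with 1 window, TGTTTNC on either strand was found in 14.5% of 11720 genes on the array, in 26 of 182 genes called higher (14.3%) and in 17 of 135 called lower (12.6%). The stricter TGTTTAC, a subset of it, was in 2.54%, 2.20% and 1.48% of the same sets. The palindromic STAT motif TTCNNNGAA was in 6.34% of all genes, in 17 of the genes called higher (9.34%) and in 3 of those called lower (2.22%). The AP-1 motif TGANTCA was in 5.4%, 3.30% and 2.96%, and the NF-kappaB motif GGGNNTTCC on either strand in 5.84%, 6.59% and 9.63%. These shares are given as a description, with no test.

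Among genes of the Treg surface and of Treg secreted proteins, 13 of 27 measured were called higher and 0 lower, a share of 48.1% beside the 2.96% of all genes. Of the 27, 8 had a difference below 0, and the median difference was 0.93 beside -0.01 over all genes. This list and those that follow were chosen with results of these arrays known, so their directions are no independent evidence. Counts of called genes in every list are to be read beside 2.96% of all genes, and 9.86% with the block. Il2ra, the IL-2 receptor alpha chain (CD25), read 2.37, 2.03 and 1.99 with A384T FoxP3 and 0.066, -0.20 and 0 in mock. All A384T arrays were above all mock arrays by about the same distance, 2.17 ± 0.15 (adjusted p = 8.79e-05). Ctla4, the inhibitory receptor that competes with CD28 for its ligands, measured 2.01, 2.05 and 1.59 against 0, 0.53 and -0.15, a difference of 1.76 ± 0.20 (adjusted p = 0.00131).

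Izumo1r, the folate receptor 4 found on Treg cells, stood at 3.41, 3.30 and 3.35 against -0.18, 0.28 and 0. The A384T arrays lay within a narrow band, and the rise was 3.32 ± 0.16 (adjusted p = 1.67e-05). Itgae, the alpha E integrin CD103, rose by 1.91 ± 0.26, Rgs1, a brake on G protein signalling, by 2.56 ± 0.31, and Ebi3, a chain of IL-35 and IL-27, by 1.39 ± 0.29. Gpr34 (1.54 ± 0.20) and Plagl1 (0.80 ± 0.17) also rose. With the block, Cd83 (1.38), Capg (0.93) and Nt5e (0.90), the last an enzyme that makes adenosine, were called higher as well, and Icos (-0.55) was called lower.

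The IL-2 receptor pathway gave the list with the highest median. IL-2 acts through JAK kinases on STAT5, and the genes of the SOCS family and Cish, which STAT5 induces, feed back on the pathway. Of 20 genes, 10 were called higher and 0 lower, a share of 50% beside 2.96% of all genes, with a median difference of 1.28. With the block 12 were higher and 2 lower, beside 9.86% of all genes called. Among receptor chains, Il2ra is described above and Il2rb, the beta chain, rose by 2.04 ± 0.20 (adjusted p = 0.000552). The feedback genes Socs2 (3.43 ± 0.40), Cish (2.60 ± 0.19) and Socs3 (2.00 ± 0.24) rose, whereas Socs1, with 1.05, 2.12 and 2.03 against -1.34, 0.43 and 0, missed the threshold at 2.03 ± 0.61 (adjusted p = 0.162) and passed it with the block (adjusted p = 1.77e-05). Among downstream genes, Bcl2l1, which encodes the survival protein BCL-XL, rose by 2.48 ± 0.42 and Pim1, a kinase, by 1.22 ± 0.087. The signalling genes themselves did not pass: Stat5a differed by 0.51 ± 0.73, Stat5b by 0.25 ± 0.40 and Jak1 by 0.16 ± 0.19.

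Genes of the TNF family were called mainly at the ligands Lta, Tnf and Ltb and at 4 receptors. Of 13 ligands, 3 were higher and 1 lower, with a median of 0.11, and of 16 receptors 4 were higher and 0 lower, with a median of 0.15. Tnf, the cytokine TNF alpha, read 3.92, 2.73 and 2.54 with A384T FoxP3 and 0, 1.10 and -0.37 in mock. The groups did not overlap, although the second mock array was above the others, and the rise was 2.82 ± 0.44 (adjusted p = 0.00787). Ltb, which forms membrane lymphotoxin with Lta, rose by 1.10 ± 0.16, while Fasl, the death ligand, fell, with a difference of -0.88 ± 0.19 (adjusted p = 0.0464). With the block, 4 ligands were higher and 3 lower.

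Among the receptors, Tnfrsf9 (4-1BB, a costimulatory receptor) measured 3.36, 3.77 and 3.39 against -0.53, 0.33 and 0, a rise of 3.57 ± 0.30 (adjusted p = 0.000237). Tnfrsf4 (OX40) stood at 2.10, 1.97 and 2.00 against -0.27, 0.61 and 0, a rise of 1.91 ± 0.22 (adjusted p = 0.00162). Tnfrsf18 (GITR) rose by 1.14 ± 0.14 and Tnfrsf13b (TACI, a receptor for BAFF and APRIL) by 0.89 ± 0.14. The A384T arrays lay above the mock arrays in all 4 receptors, and their spread was small beside the difference.

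Costimulatory and inhibitory molecules changed in both directions. Of 23, 4 were called higher and 1 lower, with a median of 0.18, and 6 and 4 with the block. Slamf1, a self-binding costimulatory receptor, rose by 2.28 ± 0.29 with all 3 probe sets called, and Cd274, the inhibitory ligand PD-L1, by 2.01 ± 0.33. Cd2, an adhesion receptor that aids T cell contact, rose by 0.61 ± 0.10. Cd28, the main costimulatory receptor, fell: its values were -0.99, -0.63 and -1.19 with A384T FoxP3 and 0.10, 0 and -0.02 in mock, a difference of -0.96 ± 0.16 (adjusted p = 0.0111).

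The cytokine genes called were 4 higher and 1 lower of 21, with a median of 0.022. Hbegf, a growth factor of the EGF family, rose by 2.93 ± 0.43, and Lif and Osm, relatives of IL-6, by 2.51 ± 0.24 and 1.35 ± 0.14. Il4, the signature cytokine of Th2 cells, read -2.05, -1.60 and -1.51 with A384T FoxP3 and 0.0093, 0 and -0.25 in mock, a difference of -1.64 ± 0.20 (adjusted p = 0.00175). All 3 A384T arrays were below the mock arrays. The genes for the effector cytokines IL-2 and interferon gamma did not pass: Il2 differed by -0.26 ± 0.11 (adjusted p = 0.384) and Ifng by -0.11 ± 0.12 (adjusted p = 0.844). The sort was made on day 7, and the sources used here do not give whether the cells were stimulated again before it. Il4 was the only called member of 14 Th2 and Th17 genes, a median of -0.11, and with the block 1 was higher and 3 lower.

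Transcription factors were called in small numbers. In the list of FoxP3 and its partner factors, 5 of 34 were higher and 1 was lower, with a median of 0.0041, and with the block 9 were higher and 5 lower. Ikzf2, which encodes Helios, a zinc finger factor of Treg cells, read 1.61, 1.02 and 1.56 against 0.17, -0.15 and 0, a rise of 1.39 ± 0.20 (adjusted p = 0.00471). The other probe sets of Ikzf2 differed by 0.80 ± 0.32 and 0.24 ± 0.11 and were not called. Its call was lost without the arrays of any 1 number. Its relative Ikzf3 (Aiolos) rose by 1.21 ± 0.20, while for Ikzf4 (Eos) array 1 stood high in both groups, at 3.53 with A384T and 1.08 in mock, and the difference of 1.40 ± 0.80 passed only with the block (adjusted p = 0.598 without and 0.02 with it). Id3, an inhibitor of E proteins, rose by 2.49 ± 0.22, Gata1, better known as an erythroid factor, by 2.06 ± 0.15, and Xbp1, a factor of the unfolded protein response, by 1.51 ± 0.19.

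In the list of AP-1, BATF, IRF and Maf factors, 3 of 22 were higher and 0 lower, with a median of 0.17, and 5 and 1 with the block. Irf4, a factor needed for activated and effector Treg cells, measured 3.30, 2.85 and 1.66 with A384T FoxP3 and 0.027, 0 and -0.027 in mock. The mock arrays agreed closely and the third A384T array was the lowest of its group, and the rise was 2.61 ± 0.41 (adjusted p = 0.00844), while its other probe set differed by 0.15 ± 0.15. The AP-1 type factor Batf, which pairs with IRF4, read -1.01, -0.65 and -0.49 against -0.87, 0.039 and 0. Its groups overlapped and the difference was -0.44 ± 0.32 (adjusted p = 0.721, and 0.0618 with the block). Maff, a small Maf factor, rose by 1.75 ± 0.38 and Jdp2, an AP-1 repressor, by 1.18 ± 0.16. The other probe set of Jdp2 differed by -0.012 ± 0.17 and was not called.

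Early response genes of the T cell receptor and feedback genes of MAP kinases leaned upward. Of 27, 6 were called higher and 0 lower, with a median of 0.58, and with the block 13 were higher and 2 lower. The NF-kappaB subunits Relb (1.92 ± 0.34) and Rel (1.48 ± 0.32) rose, and so did Nfkbia (1.10 ± 0.24), which encodes the inhibitor that holds NF-kappaB in the cytoplasm. The MAP kinase inhibitors Dusp4 (1.84 ± 0.31), Spry1 (1.58 ± 0.33) and Spred2 (1.39 ± 0.17) rose as well. Map3k8, a kinase upstream of ERK, which is not in this list but among the 20 largest rises, rose by 3.07 ± 0.38. Dusp10, a phosphatase of JNK and p38, went the other way at -1.64 ± 0.39 and was called lower only with the block (adjusted p = 0.0673 without and 4.08e-05 with it).

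Few components of the receptor itself were called without the block. Of 30 genes of the T cell receptor complex and its proximal signalling, 1 was called lower and 0 higher, with a median of -0.042. Without the block this share of 3.33% was near the 2.96% of all genes. With the block 4 were higher and 5 lower, a larger share than the 9.86% of all genes called with it. Ptpn22, a phosphatase that restrains receptor signalling, read -1.78, -1.48 and -1.28 against 0, -0.0057 and 0.029, and differed by -1.52 ± 0.13 (adjusted p = 0.000237). Trat1, an adaptor of the receptor complex, which is not in that list but among the 20 largest falls, differed by -2.43 ± 0.41 (adjusted p = 0.0127). In the list of PI3-kinase and cyclic nucleotide signalling, 2 of 26 were higher and 1 lower, with a median of -0.21, and 3 and 9 with the block. Besides Pik3ap1, those called were Trib1, a pseudokinase, at 3.06 ± 0.29 (its other probe set at -0.0019 ± 0.11) and Phlpp1, a phosphatase of AKT, at 1.19 ± 0.18.

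Granzymes C and B rose within a cytotoxic list that otherwise stayed under the threshold, 2 of 14 higher and 0 lower, with a median of -0.051. Gzmb measured 3.26, 3.33 and 1.26 with A384T FoxP3 and 0, 0.27 and -1.66 in mock. Array 3 was the lowest of both groups, and the rise of 3.08 ± 0.66 (adjusted p = 0.045) was lost in 11 of the 14 fits that left out an array or a number. With the block its adjusted p was 1.22e-06.

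Among 15 receptors shared with natural killer (NK) cells and receptors for antibody, 0 were higher and 3 lower, 11 had a difference below 0, with a median of -0.085, and 5 were lower with the block. Klrd1, the CD94 chain of inhibitory and activating NK receptors, read -3.73, -2.53 and -3.21 against 0.22, -0.12 and 0. It fell by 3.19 on the log2 scale, a difference of -3.19 ± 0.29 (9.12-fold lower, adjusted p = 0.000345). Fcgr3, the low-affinity IgG receptor CD16, stood at -2.77, -2.47 and -2.41 against 0, 0.26 and -0.33, a difference of -2.53 ± 0.21 (adjusted p = 0.000231). The third gene was Fcgrt, described above. In bulk samples, fewer cells of a type and less RNA per cell cannot be told apart.

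Receptors that guide migration moved in both directions. Of 22 chemokine and homing receptors, 2 were higher and 3 lower, with a median of -0.11, and 4 and 7 with the block. Cxcr3, the receptor for interferon-induced chemokines, read 2.07, 2.15 and 1.27 with A384T FoxP3 and 0.04, 0 and -0.58 in mock, a rise of 2.01 ± 0.37 (adjusted p = 0.0194). Cxcr6, the receptor for CXCL16, went down: -1.96, -2.16 and -1.46 against 0.62, 0 and -0.53, a difference of -1.89 ± 0.27 (adjusted p = 0.00512). Ccr2, a receptor for inflammatory chemokines, differed by -1.31 ± 0.27 and Cd44, the hyaluronan receptor, by -0.93 ± 0.20. Ptger4, a receptor for prostaglandin E2, rose by 1.61 ± 0.24. Gpr183 differed by -2.11 ± 1.05 and Cxcr4 by -1.40 ± 0.38, and both were called lower only with the block (adjusted p = 0.000216 and 0.000322, against 0.503 and 0.113).

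The 15 chemokine genes gave 0 calls with limma, with or without the block, and 1 had an unadjusted p under 0.05. Over all genes, 13.7% had an unadjusted p under 0.05 in the same fit. Their differences lay between -0.37 (Ccl5) and 0.24 (Ccl22). Among 24 cytokine receptors, 1 was higher and 2 lower, a median of -0.045, and 5 and 6 with the block: Il6st, the shared gp130 chain, rose by 1.32 ± 0.26, whereas Tgfbr3 (-1.22 ± 0.24) and Il18rap (-1.14 ± 0.23) fell. Il7r, the IL-7 receptor chain that Treg cells carry at low levels, read -1.77, -0.56 and -0.51 against -0.26, 0.15 and 0. Its groups did not overlap, yet the difference of -0.91 ± 0.34 missed the threshold (adjusted p = 0.3) and passed it with the block (adjusted p = 0.00574). Of 25 integrins and adhesion molecules, 2 were higher (Mpzl2 and Itgae) and 1 lower, with a median of -0.0087 and 5 and 1 with the block; the lower was Itga7, a laminin receptor, at -2.94 ± 0.51.

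In the list of naive and memory T cell genes, 2 of 19 were higher and 3 lower, with a median of -0.18, and 5 and 7 with the block. The genes called higher were Id3 and Txk, a TEC-family kinase (0.64 ± 0.14). Those called lower were Tdrp (-1.49 ± 0.19), Cd44 and Klf2, which supports exit from lymphoid tissue (-0.96 ± 0.20).

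Interferon-related genes were called in both directions. Of 9 guanylate-binding proteins and interferon GTPases, which act against intracellular microbes, 4 were higher and 0 lower (44.4%), with a median of 0.65. Iigp1 rose by 2.68 ± 0.36, Gbp3 by 2.11 ± 0.23, Gbp2 by 1.45 ± 0.25 and Gbp7 by 1.12 ± 0.17. Of 27 antiviral genes induced by interferon, 0 were higher and 3 lower, with a median of -0.07, and with the block 4 were higher and 7 lower. Irf7, which drives type I interferon, read -0.66, -0.84 and -0.59 against -0.0028, 0.26 and 0, a difference of -0.78 ± 0.14 (adjusted p = 0.0174). Oas2 (-0.81 ± 0.15) and Ifit2 (-0.70 ± 0.14) were the others. The difference between the 2 lists was not tested.

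Among lipid genes, Scd1 fell and Elovl6 rose. Scd1, which puts the double bond into stearic acid, stood at -2.46, -2.31 and -2.27 with A384T FoxP3 and at 0.052, -0.27 and 0 in mock, a difference of -2.27 ± 0.11 (4.84-fold lower, adjusted p = 1.67e-05); its other probe set differed by -0.16 ± 0.13 and was not called. Elovl6, which lengthens palmitic to stearic acid, read 3.66, 2.40 and 2.62 against 0.31, 0 and -0.0037, and rose by 2.79 ± 0.30 (adjusted p = 0.00097). The enzyme that makes stearic acid thus rose and an enzyme that uses it fell, each without overlap of the arrays. These were the called genes among 22 of cholesterol and fatty acid metabolism, with a median of -0.31; with the block 1 was higher and 5 lower.

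Of 24 genes of steroids, leukotrienes and prostaglandins, 2 were higher and 3 lower, with a median of -0.15, and 4 and 5 with the block. The 2 proteins that start leukotriene synthesis fell: Alox5ap, which presents arachidonic acid to the lipoxygenase, differed by -2.58 ± 0.27 (adjusted p = 0.000798) and Alox5, the lipoxygenase, by -1.48 ± 0.22 (adjusted p = 0.00674). Cyp4f18, which breaks down leukotriene B4, rose, as given above. Fdx1, the electron carrier of mitochondrial P450 enzymes, differed by -0.56 ± 0.085.

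The remaining lists had 1 to 3 calls each, or 0. Their shares ran up to 13% (TGF-beta signalling), beside 2.96% of all genes. The single calls in the serine and respiratory chain lists, at 4.35% and 4.17%, were near the share of all genes. Of 21 p53 targets and BCL-2 family genes, Bcl2l1 rose and Bbc3, the death-promoting PUMA, fell (-1.32 ± 0.22), with a median of 0.066; with the block 5 were higher and 3 lower. Of 23 genes of TGF-beta signalling, Skil, a SMAD repressor, rose by 1.20 ± 0.16, and Acvr2a, an activin receptor, fell (-1.68 ± 0.19), as did Tgfbr3. The median of that list was -0.051, and 3 were higher and 4 lower with the block. The other probe set of Skil differed by 0.086 ± 0.19 and was not called. Of 22 stress genes, Xbp1 rose and the chaperone Hspa8 fell (-0.85 ± 0.18), with a median of -0.078 and 2 and 3 with the block. The other probe sets of Hspa8 differed by -0.46, -0.34 and -0.12 and were not called. Gldc was the called gene of 23 in serine, one-carbon, amino acid and iron metabolism (median -0.076), with 3 higher and 2 lower with the block, and Ndufb8 (-0.44 ± 0.091) that of 24 respiratory chain subunits (median 0.067), with 1 and 1. The other probe set of Ndufb8 went the other way, at 0.24 ± 0.12, and was not called. The 8 measured members of the GIMAP family had 0 calls with limma and 2 at an unadjusted p under 0.05, with a median of 0.13. Of all genes, 13.7% had an unadjusted p that low. With the block 2 GIMAP genes were higher and 1 lower.

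**Figure D3:**
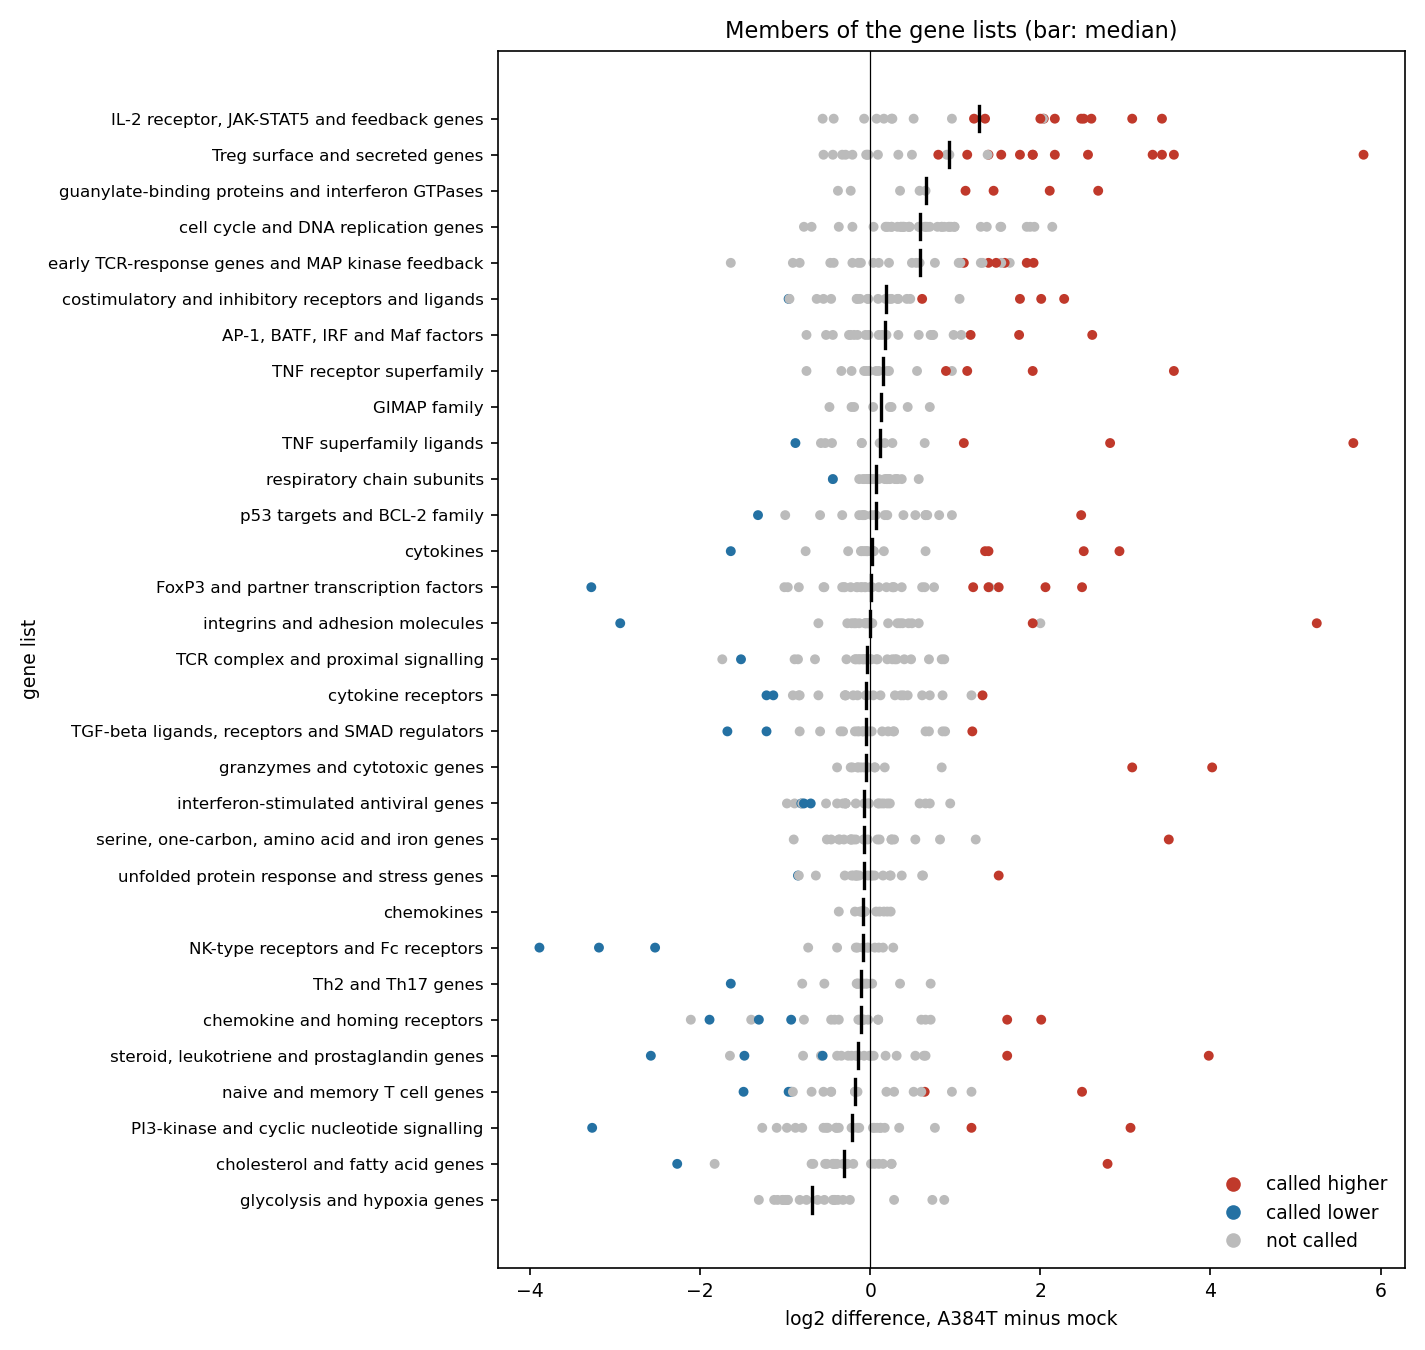
Every measured member of the 31 pathway lists, by its log2 difference of A384T minus mock on the horizontal axis; bars are list medians, and red and blue points are genes called higher and lower. The IL-2 receptor list (median 1.28) and the Treg list (0.93) lie furthest to the right, and the glycolysis list (-0.68) furthest to the left with 0 calls.

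Cell cycle and glycolysis genes leaned to 1 side as lists without single calls, and their values differed by array number. Of 43 cell cycle and DNA replication genes, 39 had a difference above 0, with a median of 0.58, yet 0 were called with limma (12 had an unadjusted p under 0.05, 11 of them higher). Over all genes, 13.7% had an unadjusted p under 0.05, 1308 higher and 1190 lower. With the block 11 were higher and 1 lower. The list's median was 1.30, 0.45 and 0.17 on A384T arrays 1, 2 and 3, and between -0.0029 and 0.036 on the mock arrays, so that array 1 stood apart. Ccna2, a cyclin of DNA replication, read 3.54, 1.78 and 0.89 against 0.32, 0 and -0.51 (2.14 ± 0.81, adjusted p = 0.312, and 0.00339 with the block). Birc5, a mitotic survival factor, differed by 1.93 ± 0.62 (adjusted p = 0.196, and 0.00373 with the block).

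Of 22 glycolysis and hypoxia genes, 19 had a difference below 0 and the median was -0.68, with 0 calls with limma and 6 at an unadjusted p under 0.05. Of all genes, 13.7% had an unadjusted p that low. Here a mock array stood apart: the list's median was -1.03, 0.49 and 0 on mock arrays 1, 2 and 3, and -1.08, -0.98 and -0.60 on the A384T arrays. Within array number 1 the median difference was 0.052, against -1.32 and -0.67 within numbers 2 and 3. Eno2, an enolase, read -1.49, -1.47 and -1.08 against -1.08, 0.98 and 0 (-1.31 ± 0.48, adjusted p = 0.286, and 0.0414 with the block), with the first mock array level with the third A384T array. With the block 0 were higher and 8 lower.

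**Figure D4:**
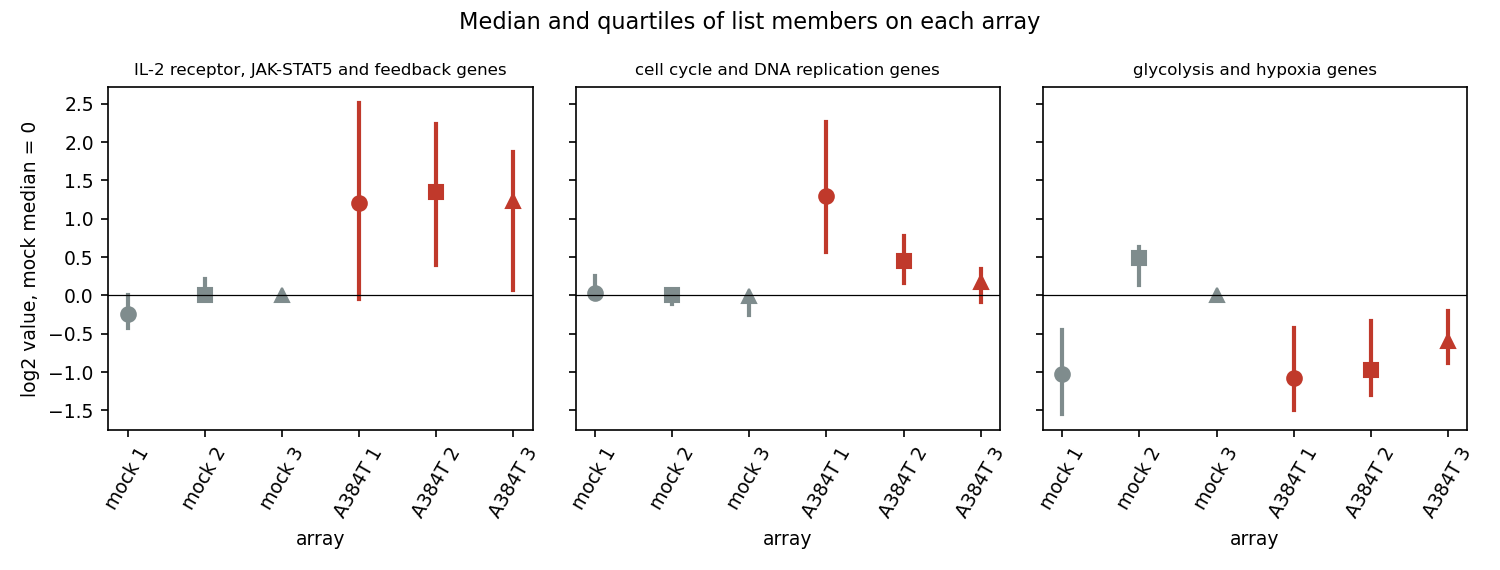
Median (symbol) and quartiles (bar) of the log2 values of 20 IL-2 receptor pathway, 43 cell cycle and 22 glycolysis and hypoxia genes on each mock (grey) and A384T (red) array. The IL-2 list is raised on all 3 A384T arrays (medians 1.20 to 1.35), the cell cycle list mostly on A384T array 1 (1.30), and the glycolysis list is low on mock array 1 (-1.03) as on the A384T arrays.

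Markers of other cell types that the culture or the sort could have brought moved little by list median. In 84 measured genes of the 7 lists, 1 was called higher and 3 lower, and with the block 4 were higher and 6 lower. Of all genes, 2.96% were called in either direction, and 9.86% with the block, so calls were not rarer among these markers. The list medians lay between -0.11 and 0.24 on the A384T arrays and between -0.018 and 0.061 on the mock arrays. The called genes were Ighm, the immunoglobulin heavy chain, at 0.92 ± 0.17; H2-Oa, a chain of the class II regulator H2-O, at -0.66 ± 0.14; and Fcgr3 and Adgre1 (F4/80, -1.13 ± 0.19) in the list of macrophages and dendritic cells, in which 0 of the other 13 passed. For Ighm another probe set was called at 0.65 ± 0.14, and the remaining ones, between -0.35 and 0.076, were not. Lists of granulocytes and mast cells, of CD8, NK and gamma-delta T cells, of erythroid cells and platelets, and of fibroblasts and endothelium had 0 calls with limma, and 1, 0, 1 and 4 genes at an unadjusted p under 0.05. Of all genes, 13.7% had an unadjusted p that low. With the block, the erythroid and platelet list had 1 lower and the fibroblast and endothelium list 1 higher and 1 lower. No gamma chain gene was among the 8 measured genes of the CD8, NK and gamma-delta list, and Trgv4, a gamma chain segment outside it, rose by 2.43 ± 0.17 (2 of 3 probe sets called). Col1a2, a fibroblast collagen, read 2.64, 0.59 and 0.92 against 0.03, 0 and -0.40 (1.51 ± 0.51, adjusted p = 0.23, and 0.0173 with the block). Because levels are lost, which of these markers are at background cannot be said, and the part of such cells in the results was not tested.

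The genes called against mock were next compared directly between A384T and WT FoxP3. Since they were chosen on these same A384T arrays, the counts that follow are a description of them. Of the 538 genes, 14 (2.6%) also differed between A384T and WT, 7 higher and 7 lower, and 30 of all genes did (0.165% of those tested, 0.066% higher and 0.0989% lower). With the block the numbers were 48 and 137 (0.753%). The 14 became 0 when only the groups compared were fitted, after quantile normalization, or without the arrays of any 1 number, and 2 to 11 without any 1 array. For 413 of the 538 (76.8%) the 95% interval of A384T minus WT lay within -1 and 1. Of genes described above, Gpr83 differed from WT by -0.44 (95% interval -0.92 to 0.047), Lta by 0.65 (-0.55 to 1.85), Il2ra by 0.06 (-0.26 to 0.39), Ctla4 by 0.006 (-0.44 to 0.45) and Fcgrt by -0.094 (-0.89 to 0.70). The intervals of Il2ra and Ctla4 were narrow, whereas that of Lta still allows more than a doubling.

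Where A384T and WT did differ, the order of the groups varied by gene. Mpzl2 stood at 1.71, 2.47 and 0.98 on the WT arrays, between mock and A384T, and A384T was above WT by 3.68 ± 0.33 (adjusted p = 0.00621). Map6, a microtubule-stabilizing protein, was at -0.70, -1.39 and -1.51 with WT and at -2.63, -2.60 and -2.93 with A384T FoxP3, a difference of -1.52 ± 0.21 (adjusted p = 0.0363). In these genes the mutant moved further from mock than WT did.

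Another set left the mock level with A384T while WT and mock could not be told apart by the test. Car2, a carbonic anhydrase, read 2.20, 1.71 and 1.69 with A384T against -0.067, 0.23 and -0.0089 with WT FoxP3 (1.82 ± 0.21, adjusted p = 0.0145). Synpo, an actin-associated protein, was above WT by 1.69 ± 0.21, Ctla2a, an inhibitor of cathepsins, by 1.70 ± 0.24, and Esr1, the estrogen receptor alpha, by 1.00 ± 0.13. Below WT were Metrnl, a secreted factor (-1.88 ± 0.22), Sgk1, a salt-induced kinase downstream of PI3-kinase (-1.55 ± 0.15), Fgfr1, a growth factor receptor (-0.99 ± 0.13) and Fdx1 (-0.73 ± 0.085). Sgk1 measured -1.35, -1.73 and -1.27 with A384T, 0.025, 0.071 and 0.20 with WT and 0, -0.46 and 0.017 in mock, so that the A384T arrays stood alone. The adjusted p of these 8 genes against WT lay between 0.00808 (Sgk1) and 0.037 (Ctla2a). Some of them rest on 1 of several probe sets. Against mock, the others differed by 0.27 for Synpo, 0.39 and 0.049 for Esr1, -0.66 and -0.075 for Metrnl, and -0.39 and 0.0093 for Fgfr1. None of these was called.

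In Ell2 and Irf7 the change was in the direction of WT but smaller. Ell2, an elongation factor of RNA polymerase II, read 0.82, 1.22 and 0.67 with A384T and 2.35, 2.90 and 2.27 with WT FoxP3, and A384T was lower by -1.60 ± 0.18 (adjusted p = 0.0145). The other probe set of Ell2 differed from mock by -0.20 ± 0.12 and was not called. Irf7 stood at -1.74, -1.40 and -1.82 with WT, below the A384T arrays, a difference of 0.96 ± 0.14 (adjusted p = 0.0436). The 14 genes also hold Synj2 and Furin, which lie outside the naming rule and were named after their values were seen; Synj2, a lipid phosphatase, was above WT by 0.86 ± 0.11 and Furin, a protease that matures TGF-beta, below it by -0.69 ± 0.088.

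**Figure D5:**
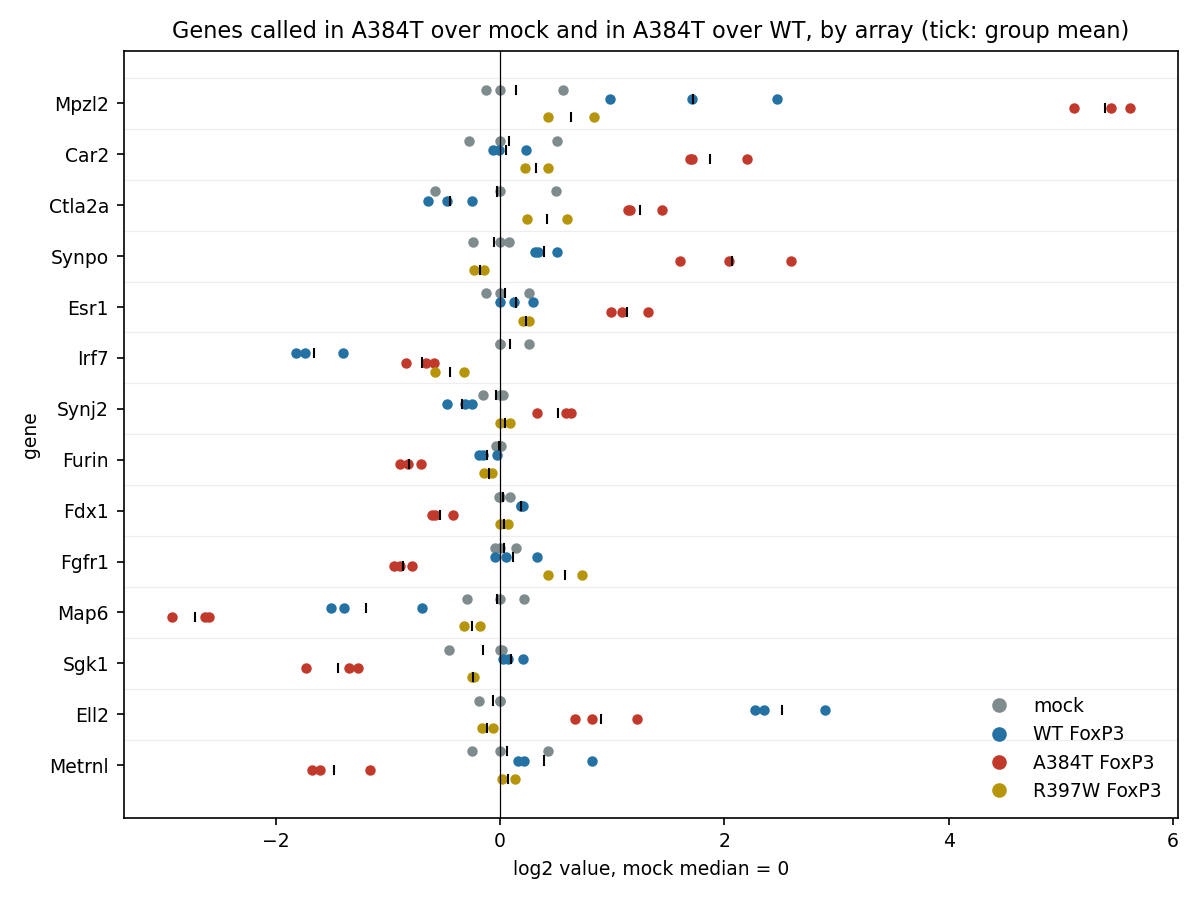
The 14 genes called both in A384T against mock and in A384T against WT, with the log2 value of each array on the horizontal axis by group; ticks are group means and 0 is the mock median. A384T stands apart from the other 3 groups for genes such as Car2, Sgk1 and Metrnl, and between mock and WT for Ell2 (0.67 to 1.22) and Irf7 (-0.84 to -0.59).

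Several genes differed from WT by more than 1 without passing the test until the block was used. Lif was above WT by 1.38 ± 0.24 (adjusted p = 0.107, and 0.0105 with the block), Myl10 by 1.76 ± 0.29 (0.0756 and 0.0105), Cxcr3 by 1.32 ± 0.37 (0.593 and 0.00389) and Fah by 1.12 ± 0.29 (0.505 and 0.00744). Below WT were Cyp4f18 (-1.42 ± 0.28, 0.19 and 0.0443), Itgae (-1.10 ± 0.26, 0.369 and 0.0181) and Epas1 (-1.04 ± 0.21, 0.219 and 0.0292). The arrays of Epas1 did not overlap, reading -3.65 to -2.93 with A384T and -2.44 to -1.76 with WT. Cxcr6 read above WT by 1.36 ± 0.27 but did not pass, either without or with the block (adjusted p = 0.187 and 0.0602).

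A384T was last set against R397W FoxP3, for the genes called against mock. Of the 308 genes called higher against mock, 196 were higher with A384T than with R397W, and of the 230 called lower, 141 were lower, in all 337 of 538, whereas 387 of all genes (2.13%) differed between A384T and R397W, 1.23% higher and 0.896% lower. With the block, 492 of the 538 differed, and 7.75% of all genes did. The R397W group had 2 arrays, and the 337 became 108 or 133 without 1 of them, 77 when only the groups compared were fitted, 124 with a trended prior, 161 after quantile normalization and 0 without the arrays numbered 2. Gpr83 read -0.20 and 0.13 on them, so that A384T was above R397W by 5.84 ± 0.24 (adjusted p = 1.31e-05). Il2ra was at 0.21 and -0.065 (2.06 ± 0.16 below A384T, adjusted p = 0.000354), Irf4 at 0.11 and -0.49 (2.80 ± 0.46, adjusted p = 0.0148) and Fcgrt at -0.96 and 0.19, with A384T below it by -3.64 ± 0.40 (adjusted p = 0.00168). Ikzf2, at 0.47 and 0.26, missed the threshold (1.03 ± 0.22, adjusted p = 0.0518) and passed it with the block (adjusted p = 0.00247). The 95% interval of A384T minus R397W lay within -1 and 1 for 104 of the 538 genes (19.3%).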

How the data were processed

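RNA of sorted, transduced CD4 T cells was measured on Affymetrix arrays, 1 a sample. Per the submitters' processing notes, the authors made the deposited log2 values with RMA (version not named), which subtracts background, quantile-normalizes and summarizes probes. At each of 45101 probe sets the mock median was exactly 0, so probe sets had been centred on mock. This step and the logarithm's base, taken as 2, are not given in the sources used here. The number of arrays limits the precision.

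After 64 control probe sets were left out, 45037 were fitted with limma 3.58.1 (R 4.3.3): 1 mean per group, all 11 arrays, 7 residual degrees of freedom, eBayes, and Benjamini-Hochberg adjustment over probe sets. Probe sets with 1 symbol in the platform annotation (34945) named 18193 genes. A further 932 had several symbols and 9160 had none, and 99 of those with none were called. The fit was tested on simulated data.

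The members and the 38 gene lists were chosen with earlier results of these data known. Named were a fixed set of 12 genes, the 20 largest rises and falls, up to 5 called genes of each list (2 where none was called) and the 10 largest differences from WT and R397W. The rises and falls were taken among called genes whose A384T arrays do not overlap the mock arrays. Groups came from the sample titles, whose numbers 1 to 3 gave the block: deviations from group means correlated at 0.593, 0.107 and 0.309 between mock and A384T arrays of the same number. Of these, only number 1 stood out clearly. Mock 2 correlated more with A384T 3 (0.204), and mock 3 nearly as much with A384T 2 (0.283). For mock and A384T these values therefore do not settle whether numbers 2 and 3 pair the arrays. Alternatives were the block, a fit of the compared groups alone, a trended robust prior, other probe set rules, other normalizations, a spread filter and left-out arrays. Figures used matplotlib 3.10.9.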

Additional observations from a re-analysis of the deposited data

Results flagged for a closer look

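The 14 genes below were called against mock and also differed between A384T and WT FoxP3, by the direct contrast in limma with Benjamini-Hochberg adjustment, n = 3 arrays a group. Values are A384T minus WT on the log2 scale. A384T was higher than WT for Mpzl2 (3.68), Car2 (1.82), Ctla2a (1.70), Synpo (1.69), Esr1 (1.00), Irf7 (0.96) and Synj2 (0.86). It was lower for Metrnl (-1.88), Ell2 (-1.60), Sgk1 (-1.55), Map6 (-1.52), Fgfr1 (-0.99), Fdx1 (-0.73) and Furin (-0.69). In each of these genes the 3 arrays of A384T lay on 1 side of the 3 arrays of WT. The genes were chosen by the contrast of these same arrays, so that separation is no added evidence. Metrnl, Synpo, Ell2, Map6, Esr1, Fgfr1 and Synj2 have several probe sets, of which only 1 was called against mock. Of the 14, 11 also differed between A384T and R397W; Ctla2a, Irf7 and Synj2 did not pass that contrast. With the array number as a block all 14 passed against WT, and Ctla2a (0.94, adjusted p = 0.0118) and Synj2 (0.47, adjusted p = 0.0464) also passed against R397W.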

How the results depend on the processing

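Of the 134 genes named by the rule, none that was called changed direction under the alternatives run; other genes named were not followed through them. With the array number as a block, 3303 probe sets and 1794 genes were called (961 higher, 833 lower), with 229 list genes and 48 of the 538 genes against WT; it lost none of the 538 calls and, among the 134, added Il7r, Ccna2, Birc5, Eno2, Egln3, Gimap9, Gimap5, Itga2b and Col1a2 and changed no other call against mock; gains of other genes stand in the report. With only the groups compared in the fit, 554 probe sets and 326 genes were called (185 higher, 141 lower), 0 of the 538 against WT (164 at an unadjusted p under 0.05 in limma) and 77 against R397W. A trended, robust prior gave 329 probe sets, 198 genes (146 higher, 52 lower, a split of 73.7% higher against 57.2%), 57 list genes, 7 against WT and 124 against R397W. Quantile normalization of the centred values gave 443 probe sets, 262 genes (152 and 110), 54 list genes, 0 against WT (96 unadjusted) and 161 against R397W. The cause of these losses was not tested. Reading each gene by its mean probe set, by the largest spread before adjustment, after subtracting array medians or without the less variable probe sets gave 545 to 755 genes. Leaving out an array gave 334 to 521 genes (191 to 306 higher, 143 to 223 lower), 597 to 927 probe sets, 63 to 93 list genes, 84 to 106 named genes, 2 to 11 against WT and 108 to 324 against R397W. Leaving out a number gave 43 to 294 genes (28 to 173 higher, 15 to 121 lower), 60 to 497 probe sets, 14 to 67 list genes, 20 to 86 named genes, 0 against WT (128 to 134 unadjusted) and 0 to 224 against R397W; these fits have 4 fewer arrays, or 3 for number 3, and without number 1 or 2 the single R397W array is assumed to vary like the other groups.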

Other observations

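The genes in this part were picked from outside the lists after their values were seen, and their calls come from the same fit (limma, n = 3 arrays a group). Faah, which breaks down the endocannabinoid anandamide, read -1.83, -1.56 and -1.62 against 0, 0.20 and -0.057 in mock, a difference of -1.72 ± 0.11 (adjusted p = 7.32e-05). Mgll, which breaks down the other main endocannabinoid, differed by -1.87 ± 0.27 with 3 of 4 probe sets called. Pltp, a phospholipid transfer protein, differed by -2.36 ± 0.20, Scarb1, the receptor for high-density lipoprotein, by -1.36 ± 0.25 and Agpat2, an enzyme of glycerolipid synthesis, by -1.40 ± 0.15. The A384T arrays lay below the mock arrays in all 5.

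Among genes called higher, Trgv4, a variable segment of the gamma T cell receptor, read 2.41, 2.24 and 2.57 against 0, -0.12 and 0.057, a rise of 2.43 ± 0.17 (adjusted p = 9.3e-05) with 2 of 3 probe sets called. Dntt, the polymerase that adds nucleotides when receptor segments are joined, rose by 2.07 ± 0.35, with A384T array 2 the highest at 2.74. Gbp2b, a guanylate-binding protein, rose by 2.85 ± 0.22 (adjusted p = 0.000166). Bhlhe40, a transcription factor of activated T cells, measured 2.82, 2.77 and 1.49 against -0.27, 0.44 and 0, a rise of 2.30 ± 0.38. Ctsl, the protease cathepsin L, rose by 2.42 ± 0.23, and Csrnp1, a nuclear protein induced early, by 2.41 ± 0.27. Anxa1, annexin A1, which binds phospholipids, was lower by -2.02 ± 0.27. Near-identical copies among the guanylate-binding proteins and the gamma chain segments may share probes, so values of single members are uncertain.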
